A study of Mus musculus with 4 samples.

Results

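The genes described here are 7 of the 31054 features counted in single intestinal epithelial cells of Bmi1-GFP mice: Pth1r, Vcan, Fscn1, Palm3, Tdh, Kcnq3 and Igfbp2. They were picked by name because their RNA was high at embryonic day 12.5 (E12.5) and nearly gone at embryonic day 17.5 (E17.5). The difference between those libraries is therefore how the genes were found, and it is given only as a description. The stated choice did not use where the genes stood in the adult libraries, how they varied among E12.5 cells, or which cells held the RNA left at E17.5. The members and divisions were, however, chosen with earlier results of these data known. The level over all E17.5 cells did enter the choice, which bears on what was left there.

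The study sorted cells by flow cytometry from mice of the Bmi1-GFP strain, in which a green fluorescent protein reports transcription at Bmi1, a Polycomb gene used as a marker of intestinal stem cells. There were 4 libraries, 1 for each of 4 groups: E12.5 embryos, E17.5 embryos, adult mice and adult mice after irradiation. All 4 carried the reporter, and the labels state no other allele or agent, no radiation dose, no animal number and no sort gate. Per the labels' protocols, the gut was dissected whole at E12.5, whereas from E14.5 on the small intestine was taken. Stage and region therefore cannot be told apart for any cells in the E12.5 library from outside the small intestine, the large intestine included. Since each group is a single library, no test was made, and every interval below is a 95% counting interval that leaves out animal and library error.

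Barcodes that showed 500 genes or more and no more than 20% mitochondrial UMIs counted as cells (a UMI, or unique molecular identifier, stands for 1 captured RNA molecule). That left 4226 cells of E12.5, 4602 of E17.5, 3788 of the adult and 3184 of the irradiated adult, with 31908663 to 89064972 UMIs per library. The median depth ran from 3699.5 UMIs per cell in the adult to 18637.5 at E12.5, so shares of cells were compared with every cell brought down to 2000 randomly drawn UMIs. Any 2 libraries shared 1 to 7 of the kept barcodes. Epcam, the general epithelial marker, stood at 1329 CPM (UMIs of a gene per 1000000 UMIs) at E12.5 and 1801 CPM at E17.5, and all 10 epithelial markers exceeded 50 CPM at E12.5. The E17.5 library also held 121 mesenchymal-like, 127 smooth muscle-like, 22 mesothelial-like and 552 pancreatic acinar-like cells, which matters for several genes below. By marker class, 55.1% of adult cells were enteroendocrine-like, 26.4% tuft-like and 1.64% enterocyte-like. In the irradiated library these shares were 56.7%, 16.0% and 3.27%. Age and cell makeup therefore cannot be told apart in the adult levels given below. Reporter RNA (eGFP) ranged from 1.10 CPM at E17.5 to 22.9 CPM at E12.5.

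At E12.5 the mouse gut is a simple tube of dividing, largely undifferentiated epithelium wrapped in mesenchyme. By E17.5 villi have formed and absorptive, goblet and enteroendocrine cells have appeared. The 7 genes do not belong to one pathway. Pth1r encodes the G protein-coupled receptor for parathyroid hormone and its related peptide, and Igfbp2 a secreted protein that binds insulin-like growth factors. Vcan encodes versican, a large proteoglycan of loose, hyaluronan-rich matrix that is best known from mesenchyme. Fscn1 encodes fascin, which bundles actin in filopodia, and Palm3 a member of the paralemmin family of membrane-attached proteins. Tdh encodes the mitochondrial enzyme that begins the breakdown of threonine to glycine, known for its high level in mouse embryonic stem cells, and Kcnq3 a voltage-gated potassium channel subunit best known from neurons.

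**Figure D1:**
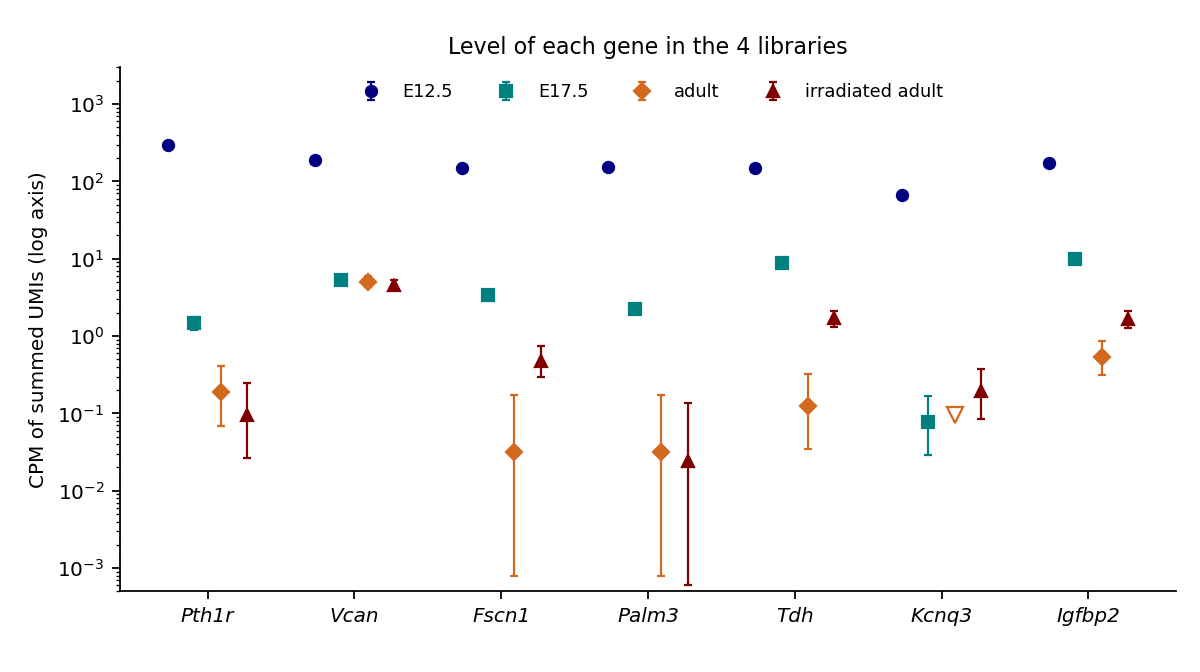
Level of each of the 7 genes in each library, in CPM summed over kept cells (log axis); bars are 95% Poisson intervals and the open triangle marks a count of 0, drawn at the level of 3 UMIs. Each gene is highest at E12.5, at 67.1 to 294 CPM, and no other library exceeds 9.81 CPM; Vcan alone stays near 5 CPM in all 3 later libraries.

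The receptor gene Pth1r (ENSMUSG00000032492) lies on the minus strand at chr9:110722085-110747145 of GRCm38. Its level was 294 CPM (290.9 to 298.0) at E12.5 and 1.46 CPM (1.20 to 1.75) at E17.5. In the adult it was 0.188 CPM, and in the irradiated library 0.0967 CPM. The last 2 values rest on 6 and 4 UMIs. The E12.5 level was thus 202-fold that at E17.5 (168 to 246) and 1566-fold that in the adult (719 to 4267). Genes with at least 200 UMIs and a UMI in 10% of cells at E12.5 were ranked by the drop to E17.5. Left out were eGFP and mitochondrial, ribosomal protein, haemoglobin, predicted and some sex-linked genes. Of the 9205 genes ranked, Pth1r held place 1. An exon of Pth1r overlaps Myl3 on the opposite strand. Myl3 held 611 UMIs at E12.5 against 26225 for Pth1r, and whether counting used the strand is not given in the sources used here.

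RefSeq lists 3 starts for Pth1r. The 250 bases before the farthest upstream of them, chr9:110747146-110747395 (GRCm38.p6, minus strand), are shown because this gene led the ranking. They are printed 5′ to 3′ in the direction of the gene, and the capitals mark a CCAAT box 25 bases before the start.
Pth1r: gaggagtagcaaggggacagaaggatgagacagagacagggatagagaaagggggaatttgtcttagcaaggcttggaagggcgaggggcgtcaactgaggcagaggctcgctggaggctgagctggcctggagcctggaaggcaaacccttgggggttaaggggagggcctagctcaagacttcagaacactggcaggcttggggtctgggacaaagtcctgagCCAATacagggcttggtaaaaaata

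The partners of the receptor were measured from a list of 16 genes of its pathway. Pthlh, the ligand made in most tissues, was close to 0 in each library, at 0.225 CPM at E12.5 and 0.130 CPM at E17.5. Pth had no UMI in any of the 4 libraries. Gnas, the stimulatory G protein that the receptor couples to, stood at 1408 CPM at E12.5 and 918 at E17.5, and the regulatory subunit of protein kinase A encoded by Prkar1a at 124 and 148 CPM. Ramp2, a small protein that modifies such receptors, was lower at E17.5, at 8.27 against 27.9 CPM. Past a fold of 2 on the log2(CPM + 1) scale there were 3 lower genes (Ramp2, Adcy3 and Arrb2) and 1 higher (Gna11) among the 13 with at least 10 UMIs. Over all genes tested, 13.5% were lower and 13.3% higher in this comparison, the background for this and the other lists. Gnas and Prkar1a were thus well measured in both embryonic libraries.

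Igfbp2 (ENSMUSG00000039323) lies on the plus strand at chr1:72824503-72852474. It was at 175 CPM (172.6 to 178.1) at E12.5 and 9.81 CPM (9.13 to 10.5) at E17.5. In the adult it was 0.533 CPM, and in the irradiated library 1.64 CPM. The adult values count 17 and 68 UMIs. The fold between the embryonic libraries was 17.9 (16.6 to 19.2). Its start is shown because Igfbp2 and Vcan, described next, lay on opposite sides in both divisions of the E12.5 cells described further on. The 250 bases before the first of its 2 RefSeq starts, chr1:72824230-72824479 (GRCm38.p6, plus strand), hold 3 GC boxes and 1 E-box, in capitals.
Igfbp2: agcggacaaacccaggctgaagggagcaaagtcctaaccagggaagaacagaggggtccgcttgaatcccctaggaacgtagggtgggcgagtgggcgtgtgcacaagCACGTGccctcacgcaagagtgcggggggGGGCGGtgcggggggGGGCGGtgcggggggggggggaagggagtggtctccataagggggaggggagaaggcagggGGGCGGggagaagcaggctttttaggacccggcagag

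Other genes of the insulin-like growth factor axis did not move as a block. Of the 17 listed, 2 were lower past the fold and 4 higher, against 13.5% and 13.3% of all genes. The lower ones were binding proteins like Igfbp2 itself: Igfbp4 stood at 184 CPM at E12.5 and 38.5 at E17.5, and Igfbp5 at 81.3 and 14.5 CPM. Igf1, a ligand, was 0.359 CPM at E12.5 and 29.4 at E17.5, and Igfbp7 stood at 4.26 and 32.2 CPM. When only gut epithelial clusters were used (3265 cells at E12.5 and 3780 at E17.5, defined below), the higher genes numbered 2 in place of 4. In those clusters Igf1 was at 0.0869 CPM at E12.5 and 0.873 CPM at E17.5, short of the fold. Igfbp7 was at 2.98 and 28.6 CPM in them. Over all kept cells, the receptor Igf1r was at 42.0 and 20.6 CPM.

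Vcan (ENSMUSG00000021614), on the minus strand at chr13:89655312-89742509, stood at 187 CPM (183.7 to 189.4) at E12.5. It was at 5.26 CPM (4.76 to 5.80) at E17.5. In the adult it was 5.08 CPM (4.33 to 5.92), and in the irradiated library 4.57 CPM (3.94 to 5.27). These 3 later levels overlap in their counting intervals over all kept cells. In the gut epithelial clusters of E17.5 alone (defined below) Vcan was lower, at 2.89 CPM (2.49 to 3.32), and that interval lies below both adult ones. Cell makeup differs between these sets, and the order varied by class. In enteroendocrine-like cells Vcan was at 10.1 CPM (8.16 to 12.4) at E17.5, 6.05 CPM (4.72 to 7.65) in the adult and 5.60 CPM (4.58 to 6.78) after irradiation. In unnamed clusters it was at 6.11, 23.4 and 15.4 CPM in the same libraries. The Sst-led cluster was unnamed in the adult but enteroendocrine-like after irradiation. The fold between E12.5 and E17.5 was 35.4 (32.1 to 39.2). In the 250 bases before its RefSeq start, chr13:89742513-89742762 (GRCm38.p6, minus strand), there are 2 GC boxes and 1 CCAAT box; the CCAAT box and the GC box nearer the start are in reverse.
Vcan: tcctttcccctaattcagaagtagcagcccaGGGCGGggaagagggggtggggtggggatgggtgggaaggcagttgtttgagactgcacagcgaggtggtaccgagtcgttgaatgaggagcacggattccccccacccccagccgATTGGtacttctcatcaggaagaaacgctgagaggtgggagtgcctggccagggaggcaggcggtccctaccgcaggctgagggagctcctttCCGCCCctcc

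Versican binds hyaluronan, and the genes for that matrix were read beside it. The 3 hyaluronan synthase genes were nearly absent from each library, the highest level being 0.312 CPM of Has2 at E17.5. Hapln1, the link protein that ties versican to hyaluronan, was 13.3 CPM at E12.5 and 3.56 at E17.5. Adamts1, a protease that cleaves versican, stood at 32.3 and 12.2 CPM. The hyaluronan receptor Cd44 showed the opposite order, with 2.01 CPM at E12.5, 7.21 at E17.5 and 83.3 in the adult. Of 18 matrix genes with enough UMIs, 3 were lower past the fold at E17.5 and 2 higher.

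The fascin gene Fscn1 (ENSMUSG00000029581; chr5:142960343-142973185, plus strand) was at 147 CPM (145.0 to 150.0) at E12.5. Its level was 3.35 CPM (2.96 to 3.79) at E17.5. In the adult it was 0.0313 CPM (1 UMI), and in the irradiated library 0.483 CPM (20 UMIs). The E12.5 level was 44.0-fold that at E17.5 (38.9 to 49.9), and its ratio to the adult was 4706 with a counting interval from 845 to 185897. Other actin bundlers were mixed. Of 11 with enough UMIs, 5 were higher at E17.5 past the fold, among them Vil1 (villin of the brush border, 45.7 and 147 CPM) and Eps8 (15.9 and 83.9 CPM), and 3 were lower, against 13.3% and 13.5% of all genes. Espn, which builds microvilli and sensory bristles, was one of those 3, at 99.9 and 37.3 CPM, but stood at 305 CPM in the adult.

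Palm3 (ENSMUSG00000047986; chr8:84021471-84030295, plus strand) was at 153 CPM (150.8 to 155.9) at E12.5 and 2.26 CPM (1.94 to 2.62) at E17.5. Each adult library held a single UMI. The fold between the embryonic libraries was 67.8 (58.4 to 79.2). Within its family, Palm showed a like order, with 19.9 CPM at E12.5, 4.65 at E17.5 and 1.88 in the adult. Palmd was at 0.427 and 1.92 CPM in the embryonic libraries, and Palm2 at or below 0.143 CPM in all 4. Of these 3 relatives, 1 was lower past the fold at E17.5 (Palm) and 1 higher (Palmd). An exon of Palm3 overlaps Il27ra on the opposite strand, which held 2 UMIs at E12.5.

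Tdh (ENSMUSG00000021953; chr14:63492347-63509092, minus strand) was at 148 CPM (145.3 to 150.4) at E12.5 and 8.94 CPM (8.29 to 9.64) at E17.5. In the adult it was 0.125 CPM (4 UMIs), and in the irradiated library 1.69 CPM (70 UMIs). It ranked 37 in the drop to E17.5, the least steep of the 7, with a fold of 16.5 (15.3 to 17.9). The partner enzyme Gcat, which takes the product of Tdh to glycine, had the opposite order, at 104 CPM at E12.5 and 250 at E17.5. Of 14 genes of threonine, serine and glycine metabolism, 4 were lower and 4 higher past the fold, against 13.5% and 13.3% of all genes. The lower set included Phgdh (461 CPM at E12.5 and 214 at E17.5) and Psat1 (64.4 and 19.1 CPM) of serine synthesis, and Gldc of the glycine cleavage system (17.2 and 2.73 CPM). With the gut epithelial clusters alone, the higher genes numbered 2.

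Kcnq3 (ENSMUSG00000056258; chr15:65986387-66286642, minus strand) was nearly absent from the later libraries. It was at 67.1 CPM (65.4 to 68.8) at E12.5 and 0.0780 CPM at E17.5, where 6 UMIs remained in 5 cells. The adult library held 0 UMIs, which puts Kcnq3 at least 713.5-fold lower than at E12.5 (set against 3 UMIs per library), and the irradiated library held 8. Kcnq5, a related subunit of neurons, was at 0.0898 CPM at E12.5. Kcnq1, the epithelial member of the family, had the opposite order: 0.0786 CPM at E12.5, 13.7 at E17.5 and 39.1 in the adult. Its partner subunit Kcne3 was at 21.2, 37.3 and 50.4 CPM in the same libraries. Of 5 channel subunits and their anchors with enough UMIs, 1 was lower past the fold at E17.5 (Ank3) and 1 higher (Kcnq1). Gm27153, a gene on the opposite strand that lies within Kcnq3 and touches none of its exons, also had the opposite order, with 3 UMIs at E12.5 and 304 at E17.5.

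All 7 genes were lower past a fold of 2 at E17.5 than at E12.5, against a background of 13.5% of all genes tested; the choice of the genes fixes this count. The same 7 were also lower than at E12.5 in the adult library, where 22.7% of all genes were, and after irradiation, where 23.4% were. Since the genes were chosen for a high E12.5 level, which enters all of these ratios, nothing is read from these counts either. The 3 comparisons share the E12.5 library. The median log2 ratio over the 7 was -5.09 at E17.5 (-0.10 over all genes), -7.05 in the adult (-0.16) and -6.06 after irradiation (-0.17). The lists of related genes given above had median log2 ratios at E17.5 of -0.17 (parathyroid hormone receptor), -0.04 (versican and hyaluronan), -0.04 (actin bundling), 0.08 (paralemmins), -0.04 (threonine and glycine), 0.48 (potassium channel subunits) and 0.22 (insulin-like growth factors). In the ranking from which the 7 came, Pth1r, Kcnq3, Palm3, Fscn1 and Vcan held places 1, 2, 4, 7 and 8, and Igfbp2 and Tdh places 33 and 37. Genes of like rank that were not chosen include Shh (3), Igdcc3 (5), Car14 (6) and Pdgfc (10). Shh, the hedgehog signal of the gut epithelium, was at 315 CPM at E12.5 and 4.39 CPM at E17.5.

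E12.5 cells often held more than 1 of these RNAs at once. After thinning to 2000 UMIs, 88.3% of 3655 cells (87.3 to 89.4) had a UMI of at least 1 of the 7, and the median cell had 2 of them. The share was 8.30% at E17.5, and the adult libraries had 1.29% without and 1.79% with irradiation. At least 3 of the 7 were seen together in 28.3% of E12.5 cells and in 1 of 4412 cells at E17.5. The genes were chosen for a high E12.5 level, so nothing is read from the contrast of E12.5 with the later libraries. By gene, the share of thinned E12.5 cells with a UMI ran from 12.4% for Kcnq3 to 43.3% for Pth1r; unthinned it ran from 58.8% to 84.0%. The thinning left out 571 cells of E12.5, 190 of E17.5, 686 of the adult and 505 of the irradiated adult.

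The genes most like each member over the 4 libraries were found by the distance between centred log2(CPM + 1) values, among 10505 genes. For Pth1r they were Palm3, Shh and Fscn1; for Fscn1 they were Pdgfc, Palm3 and Ltbp1. Tdh and Igfbp2 were each other's nearest gene at a distance of 0.35, followed for Tdh by Ldhb. Kcnq3 was nearest to Car14 and Igdcc3, and Vcan to Ccdc85a, Prtg and Crabp2. With 4 libraries such likeness describes little more than a high E12.5 value and low values elsewhere.

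**Figure D2:**
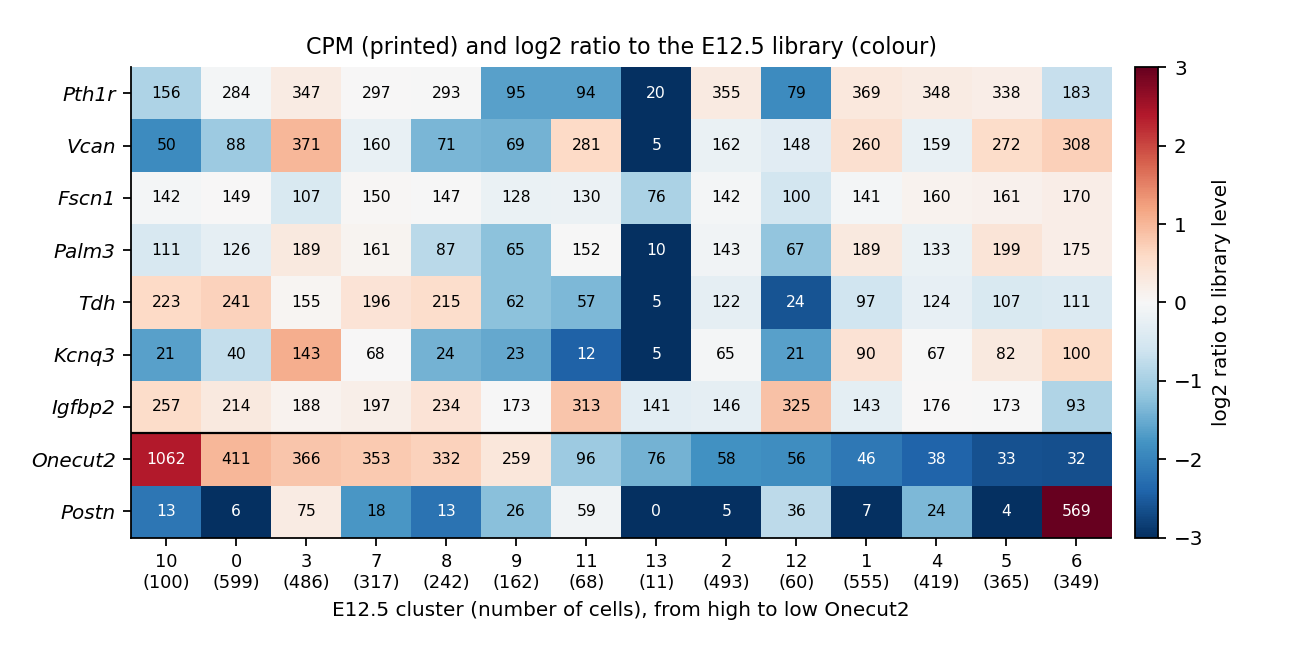
CPM (printed numbers) of the 7 genes, Onecut2 and Postn in each of the 14 clusters of E12.5 cells, ordered from high to low Onecut2; colour is the log2 ratio to the whole E12.5 library. Fscn1 is nearly even across columns, Vcan and Kcnq3 are low in the Onecut2-rich cluster 10, and Igfbp2 is lowest in the Postn-rich cluster 6. Pth1r is also low in cluster 6, and lower still in clusters 9 to 13, the Onecut2-rich cluster 10 included.

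Within E12.5 the 7 genes did not form one block. The library fell into 14 clusters of 11 to 599 cells. Onecut2, a transcription factor gene of the proximal gut, was above 300 CPM in clusters 0, 3, 7, 8 and 10. Postn, which encodes the matrix protein periostin, reached 569 CPM in cluster 6 and at most 74.7 CPM elsewhere. Clusters 3 and 8 were read thinly, with median depths of 1108 and 2993 UMIs, and were left unnamed.

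Fscn1 was the most even of the genes, at 100 to 170 CPM in 13 of the 14 clusters. Vcan ranged much further, from 49.6 CPM in cluster 10 to 308 CPM in the Postn-rich cluster 6 when the thinly read clusters and the smallest cluster are set aside. Tdh was at 241, 196 and 223 CPM in the Onecut2-rich clusters 0, 7 and 10, and at 96.8 to 124 CPM in clusters 1, 2, 4, 5 and 6. Kcnq3 was at 21.1 and 40.4 CPM in the Onecut2-rich clusters 10 and 0 and at 64.9 to 99.6 CPM in clusters 1, 2, 4, 5 and 6, but cluster 7, also rich in Onecut2, lay within that range at 67.7 CPM.

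Some small clusters stood apart. Cluster 10 (100 cells) was led by Nepn, Sfrp5 and Nkx6-2, with Gkn3, Nkx6-3 and Pdx1 also among its leading genes. It counts among the gut epithelial clusters, and whether its cells came from outside the small intestine was not tested. Cluster 9 (162 cells) was led by pancreatic genes such as Cpa1 and Nkx6-1, and there Pth1r was at 95.3 CPM, Tdh at 62.4 and Kcnq3 at 22.7, while Igfbp2 was at 173 CPM. Cluster 11 (68 cells) was led by Hoxb13 and Hoxa13, genes of the most distal gut, and combined high Igfbp2 (313 CPM) and Vcan (281 CPM) with low Pth1r (93.8 CPM), Tdh (57.1 CPM) and Kcnq3 (11.7 CPM). Cluster 12 (60 cells) was led by Acta2, Krt5, Col1a1 and Col3a1, and it had the highest Igfbp2 of the library, 325 CPM. Cluster 13 (11 enteroendocrine-like cells) was led by Gcg, Slc38a5 and Pyy, with Ins1, Ghrl and Iapp also among its leading genes. Whether its cells came from the gut or the pancreas was not tested. The cluster had 5.03 to 20.1 CPM of Pth1r, Vcan, Palm3, Tdh and Kcnq3, 75.5 CPM of Fscn1 and 141 CPM of Igfbp2. Each of the first 5 of those values rests on 4 UMIs or fewer.

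To ask how the genes related to Onecut2 and Postn directly, each E12.5 cell was thinned to 5000 UMIs and called positive for a gene with at least 1 UMI. Of 3510 cells deep enough (716 were not), 36.0% were Onecut2-positive, 11.5% Postn-positive and 1.68% both. Levels were then taken from all UMIs. No member passed a fold of 2 in either division; with cells divided by all their UMIs rather than 5000, Tdh did so for Onecut2, at a log2 ratio of 1.09 against 0.89. Over all genes, 0.827% were lower and 0.388% higher past that fold in Onecut2-positive cells, and 0.745% and 2.08% in Postn-positive cells.

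Below that fold the genes parted in opposite directions. In Onecut2-positive against negative cells, Tdh was 202 against 109 CPM, a ratio of 1.86 (1.80 to 1.93). Igfbp2 was 208 against 151 CPM, a ratio of 1.37 (1.33 to 1.42). Both were thus higher beside Onecut2.

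Vcan was lower, at 131 against 223 CPM, a ratio of 0.587 (0.568 to 0.607). Kcnq3 was 53.0 against 75.6 CPM, a ratio of 0.701 (0.663 to 0.740), and Palm3 135 against 167 CPM, a ratio of 0.811 (0.783 to 0.840). Pth1r differed less, at 274 against 308 CPM, and for Fscn1 (146 against 149 CPM) the interval of the ratio, 0.947 to 1.02, took in 1.

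In shares of thinned cells, a UMI of Tdh was found in 60.2% of Onecut2-positive and 37.5% of negative cells, and one of Vcan in 43.8% and 61.5%. Median depth before thinning was 25559 UMIs in cells with Onecut2 alone and 19790 in cells with neither gene; its part in these differences was not tested beyond the thinning.

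Cells positive for Postn gave nearly the mirror image. Vcan was 292 against 171 CPM, a ratio of 1.71 (1.64 to 1.78), and Kcnq3 93.4 against 62.7 CPM, a ratio of 1.49 (1.38 to 1.60). Igfbp2 was 112 against 183 CPM, a ratio of 0.611 (0.573 to 0.650), and Tdh 115 against 152 CPM, a ratio of 0.757 (0.711 to 0.805). The 2 divisions are not independent, since Postn itself was 22.3 CPM in Onecut2-positive and 92.0 in Onecut2-negative cells.

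Pth1r broke the mirror, being lower in the positive cells of both divisions. In Postn-positive cells it was 196 against 306 CPM, a ratio of 0.641 (0.611 to 0.671). It was highest in the 1902 cells with neither gene, at 329 CPM, against 277 CPM with Onecut2 alone, 195 with Postn alone and 198 with both. In the 59 cells with both, Vcan (226 CPM), Tdh (148 CPM), Kcnq3 (70.3 CPM) and Igfbp2 (164 CPM) each lay between the levels in the cells with 1 of the genes alone. Putative doublets (barcodes that may hold more than 1 cell) were kept here, and their part in these 59 was not tested.

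**Figure D3:**
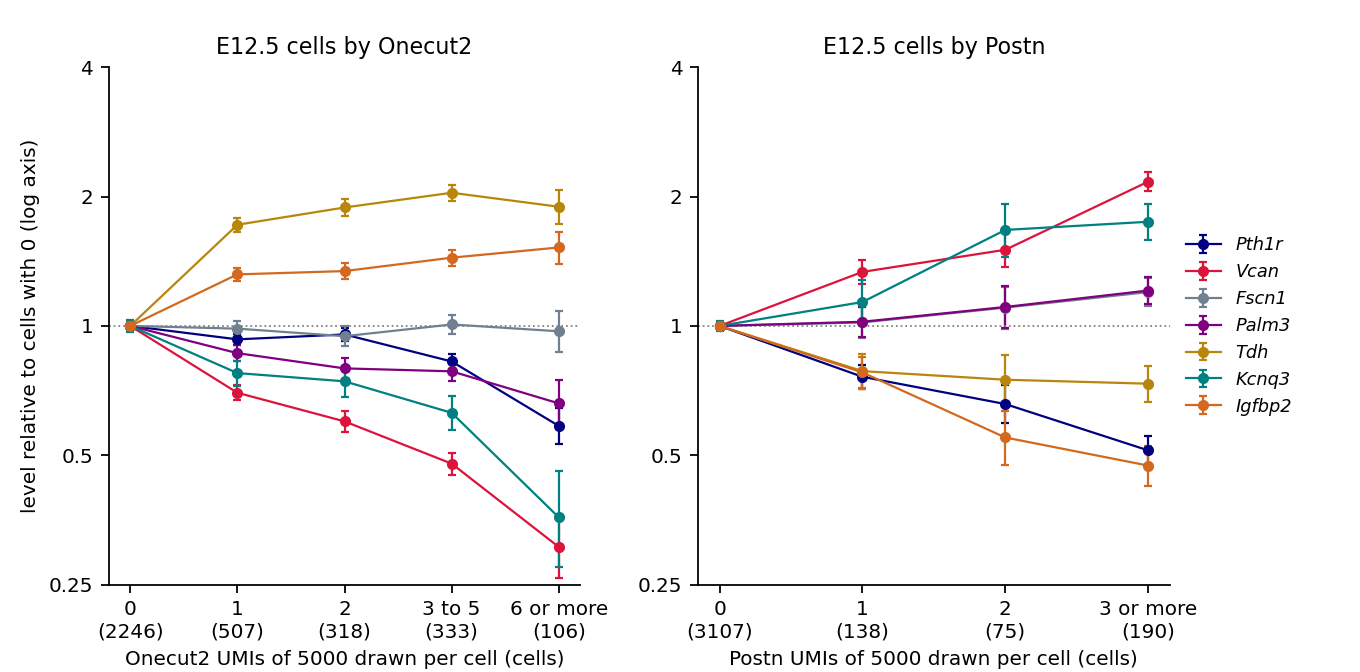
Level of each gene in E12.5 cells grouped by the Onecut2 (left) or Postn (right) UMIs among 5000 drawn per cell, relative to cells with 0 (log axis); bars are 95% Poisson intervals of each level and cell numbers stand below each group. Vcan and Kcnq3 descend with Onecut2 and ascend with Postn, Igfbp2 does the reverse, and Fscn1 is nearly level in the left panel.

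The differences were graded with the markers' UMIs. With 0, 1, 2, 3 to 5 and 6 or more Onecut2 UMIs, Vcan stood at 223, 156, 134, 107 and 68.2 CPM and Kcnq3 at 75.6, 58.7, 56.2, 47.4 and 27.1 CPM. Tdh was at 109 CPM with 0 and at 187 CPM with 1 UMI, reached 222 CPM at 3 to 5 and was at 206 CPM in the 106 cells with 6 or more. Most of the step in Tdh thus lay between no detected Onecut2 and the first UMI, whereas Vcan was lower in every group than in the one before. These groups mix clusters. Cluster 10 was at 1062 CPM of Onecut2, 49.6 CPM of Vcan and 21.1 CPM of Kcnq3, and its part in the grading was not tested.

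Along Postn the same holds in the other direction. With 0, 1, 2 and 3 or more Postn UMIs, Vcan was at 171, 228, 257 and 370 CPM. Igfbp2 was at 183, 143, 101 and 86.5 CPM and Pth1r at 306, 233, 201 and 157 CPM. Fscn1 went from 146 to 175 CPM and Palm3 from 152 to 183 CPM, so these differed least along Postn.

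Known regional genes moved with both divisions. Onecut2-positive cells held more Gata4, a factor of the proximal intestine (61.0 against 27.1 CPM), and less Hoxb9 and Osr2 (2.70 against 11.1 and 65.9 against 152 CPM). Postn-positive cells held more Hoxb9 (51.8 against 2.14 CPM) and Hoxb6 (19.1 against 2.45 CPM), which mark the distal gut, and less Gata4 (16.4 against 44.4 CPM). Of 18 regional regulators, 4 were lower and 2 higher past the fold with Onecut2 (Onecut2 itself among the latter), and 3 lower and 7 higher with Postn, with median log2 ratios of -0.31 and 0.27 beside -0.04 and 0.04 over all genes. Position along the gut and the presence of Onecut2 or Postn RNA cannot be told apart in these cells. Col3a1 is 1 of the 10 mesenchymal markers used for naming clusters, a list that also holds Postn itself. It was 2.73 against 11.4 CPM in the Onecut2 division and 6.45 against 7.94 CPM in the Postn division. The other markers of the list are not given for these divisions, and mesenchymal RNA in Postn-positive cells is not judged from this 1 gene.

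Reporter RNA and proliferation were used as further divisions of the same cells. In the 402 cells with an eGFP UMI, no member differed by more than 0.17 in log2 ratio, the furthest being Vcan at -0.17. Background shares were 0.185% lower and 0.0191% higher past the fold. In the 2692 cycling cells, those with at least 3 of their 5000 drawn UMIs from 15 genes of the G2/M phase, Vcan was 178 against 214 CPM in the other cells and Tdh 152 against 130 CPM. No member passed the fold there either, against 0.891% and 1.35% of all genes.

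Pairs of members within single E12.5 cells showed the same parting. Over the 3510 cells of at least 5000 UMIs, the Pearson correlation of log-scaled counts was 0.30 for Vcan with Kcnq3, 0.25 for Vcan with Palm3 and -0.19 for Vcan with Tdh. Tdh correlated with Onecut2 at 0.46 and Vcan at -0.38. These cells share 1 library and differ in depth, and in counts this sparse the remaining pairs of members, which lay between -0.15 and 0.18, say little. Over all 4226 E12.5 cells, shallow ones included, correlations differ from those above. There, across 10295 genes and leaving out the sex chromosomes, the closest partners were Plac8 for Tdh (0.41), Prdx2 for Fscn1 (0.38), Lgals2 for Pth1r (0.35), Ifitm2 for Igfbp2 (0.30), Gipc2 for Palm3 (0.25), Cachd1 for Vcan (0.24) and Vcan for Kcnq3 (0.21).

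**Figure D4:**
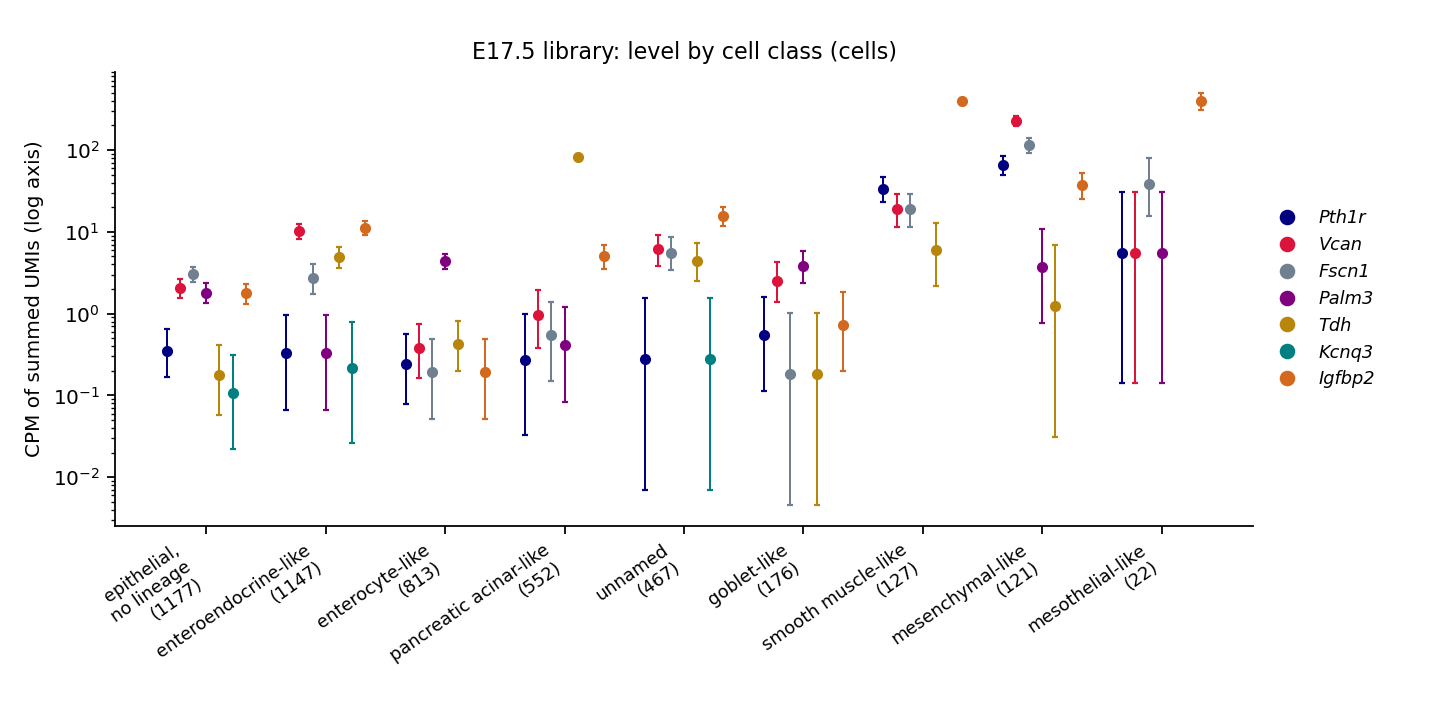
Level of each gene in each cell class of the E17.5 library (log axis), with 95% Poisson intervals; a missing point is a count of 0, and cell numbers follow the class names. Vcan, Fscn1 and Pth1r are highest in the mesenchymal-like cells, Igfbp2 in the smooth muscle-like and mesothelial-like cells, and Tdh in the pancreatic acinar-like cells.

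The RNA left at E17.5 sat in different cells for different genes. Most UMIs of Pth1r, Tdh and Igfbp2 lay outside the gut epithelial clusters (defined below), which held 22 of 112, 76 of 688 and 216 of 755. Palm3 was nearly all inside them, with 167 of 174, and Vcan and Fscn1 were about evenly divided, with 195 of 405 and 136 of 258. The 121 mesenchymal-like cells made up 2.63% of the library but held 45.2% of its Vcan UMIs, 47.3% of its Pth1r and 35.7% of its Fscn1. In them Vcan was at 226 CPM (194.6 to 261.4), Fscn1 at 114 CPM (91.7 to 139) and Pth1r at 65.5 CPM (49.1 to 85.7). The first of these lies above the 187 CPM of the whole E12.5 library. Within this class Vcan was 322 CPM in a cluster led by Dcn and Lum (73 cells) and 63.5 CPM in one led by Adamdec1 and Ccl11 (48 cells), while Pth1r was 53.0 and 86.9 CPM in the same order.

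Igfbp2 had another address. The 127 smooth muscle-like cells held 53.0% of its UMIs at 396 CPM (358 to 437), and the 22 mesothelial-like cells were at 400.0 CPM (313 to 504). One smooth muscle-like cluster of 46 cells, led by Actg2, reached 825 CPM of Igfbp2, whereas the other, led by Acta2, was at 141 CPM. Pth1r was at 33.6 CPM in smooth muscle-like cells.

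Tdh stood in neither of these groups. The 552 pancreatic acinar-like cells held 87.9% of the Tdh UMIs of the library, at 82.4 CPM (76.0 to 89.2), and 47.6% of them had a UMI of Tdh. The other 6 genes were at 5.04 CPM or below in these cells, with 0.272 CPM for Pth1r and 0.953 CPM for Vcan. A UMI of Pth1r was found in 0.362% of the acinar-like cells against 34.7% of mesenchymal-like cells, and one of Vcan in 1.27% against 57.9%, at median depths of 12529 and 6163 UMIs. The acinar-like level serves as a background for Pth1r and Vcan here. It does not for Tdh, nor for Igfbp2, which was at 5.04 CPM (3.55 to 6.95) in acinar-like and 0.191 CPM (0.0521 to 0.490) in enterocyte-like cells.

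In the gut epithelial clusters of E17.5, which leave out the mesenchymal-like, smooth muscle-like, mesothelial-like and acinar-like cells, what remained was small. They keep 3780 cells, among them a cluster of 145 cells led by the insulin genes Ins1 and Ins2. Also kept are a cluster of 98 cells led by Ppy and Pyy and 1 of 124 cells led by Spp1 and Neurog3. The latter scored highest, among the lineages, for pancreatic progenitor markers. At E12.5 the set is the 3265 cells of epithelial clusters with no lineage name, without enteroendocrine-like and unnamed clusters. At E17.5 the 1147 enteroendocrine-like and 467 unnamed cells stayed in, so the sets were not made alike. Pth1r was at 0.326 CPM (22 UMIs), Tdh at 1.12, Fscn1 at 2.01, Palm3 at 2.47, Vcan at 2.89 and Igfbp2 at 3.20 CPM. Kcnq3 kept its 6 UMIs. For Pth1r the interval, 0.204 to 0.493 CPM, takes in the 0.272 CPM of acinar-like cells, so this level could not be told from background. Igfbp2 was uneven, at 11.1 CPM (9.04 to 13.5) in enteroendocrine-like cells, 15.6 CPM (11.8 to 20.2) in the unnamed clusters and 0.191 CPM in enterocyte-like cells. Compared with all kept cells, leaving out the other classes lowered Tdh from 8.94 to 1.12 CPM and Pth1r from 1.46 to 0.326 CPM and had little effect on Palm3 (2.26 and 2.47 CPM).

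Even so, some epithelial clusters stood above the rest. Palm3 was the 1 gene with most of its E17.5 UMIs in absorptive cells: 92 of 174 lay in enterocyte-like cells, at 4.40 CPM (3.55 to 5.40). It was at 3.80 CPM in goblet-like cells and 0.326 CPM in enteroendocrine-like cells. Vcan had 74 UMIs in an enteroendocrine-like cluster led by Reg4 and Tph1, at 39.1 CPM (30.7 to 49.1). Fscn1 was at 22.7 CPM in a cluster of 156 cells led by Akr1b7 and Tff2, which also held the highest Onecut2 of the library, 1241 CPM. Tdh was at 23.1 CPM (28 UMIs) in the cluster led by Gcg and Ghrl, hormones of endocrine cells.

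**Figure D5:**
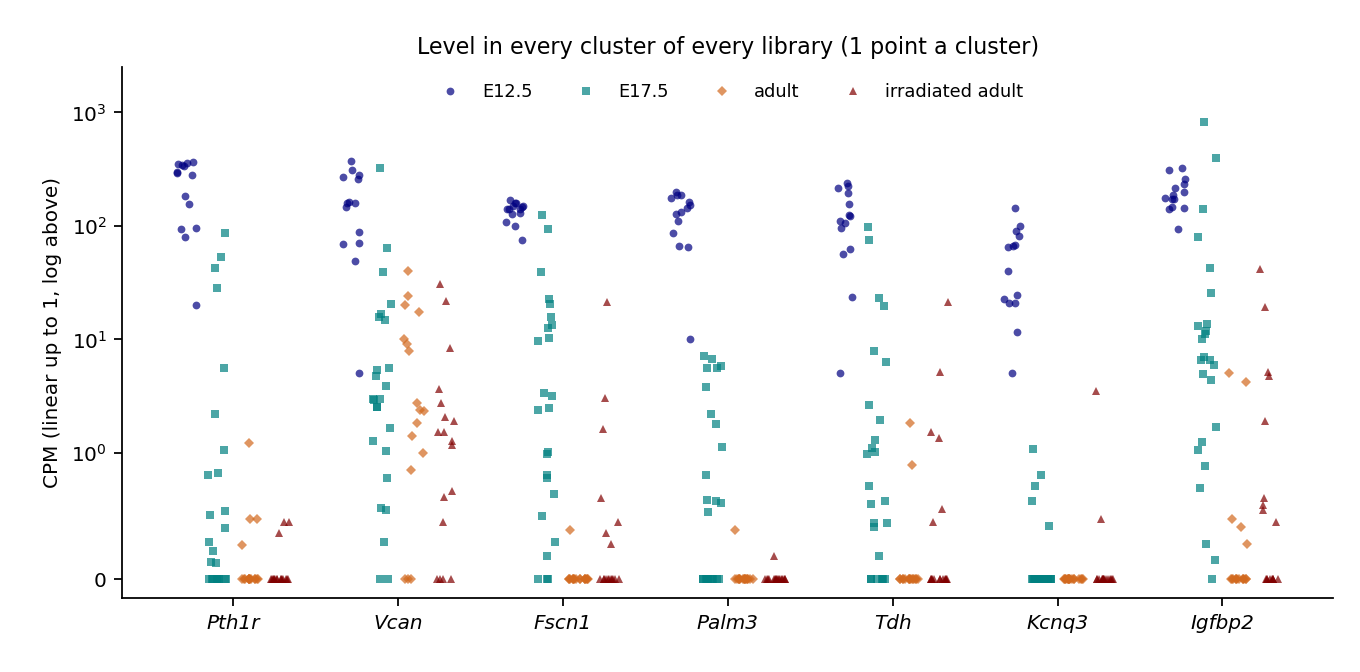
Level of each gene in every cluster of every library, 1 point a cluster (14 clusters of E12.5, 25 of E17.5, 17 of the adult and 18 of the irradiated adult; axis linear up to 1 CPM and log above). E12.5 clusters lie at the top for most genes, and the later clusters above 50 CPM are mesenchymal-like, smooth muscle-like, mesothelial-like or acinar-like clusters of E17.5.

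In the adult library, Vcan had 162 UMIs in 115 cells, and no other member had more than 17 UMIs. It was highest in a cluster of 137 cells led by Sst, the somatostatin gene, at 39.7 CPM (28.8 to 53.3), and was at 2.31 CPM in tuft-like cells. The irradiated library had the same leading cluster, with Vcan at 30.7 CPM (23.9 to 38.9) in its Sst-led cluster of 183 cells. In that library Vcan was at 6.03 CPM in tuft-like cells and 5.60 CPM in enteroendocrine-like cells as a whole. Tuft-like cells of the adult, 1001 in number, had no UMI of any of the other 6 genes.

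Counts of these genes were low in both adult libraries. Of the 5 genes with at least 10 UMIs in both libraries together, 1 was higher past the fold after irradiation (Tdh) and none lower, where 2.54% of all genes were higher and 4.42% lower. Tdh was at 1.69 against 0.125 CPM, a ratio of 13.5 (5.04 to 50.9); with a pseudocount of 10 CPM its log2 ratio was 0.21 in place of 1.26, and no gene passed. Of the 70 Tdh UMIs in the irradiated library, 23 came from 1 cell and 47 from 4 cells, all in the cluster led by Gcg and Ghrl. That cluster was at 21.4 CPM in 171 cells; its counterpart in the adult, led by the same hormone genes, held 3 UMIs in 161 cells. At E17.5, too, the cluster led by Gcg and Ghrl stood out for Tdh, as given above.

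Igfbp2 was 1.64 against 0.533 CPM, a ratio of 3.08 (1.79 to 5.60). On the log2(CPM + 1) scale this was 0.79, short of the fold; it was 1.46 when CPM was averaged over cells. Of its 68 UMIs after irradiation, 35 lay in a cluster of 159 cells led by Afp and Tac1, and 1 cell of the library held 12. Fscn1 was 0.483 against 0.0313 CPM, a ratio of 15.4 with an interval from 2.47 to 639. Of its 20 UMIs, 6 came from 1 enterocyte-like cell. Vcan was 4.57 against 5.08 CPM, with a ratio of 0.900 (0.725 to 1.12), and Pth1r, Palm3 and Kcnq3 had at most 8 UMIs in either library. Reporter RNA and depth also differed between these libraries, at 12.5 against 1.72 CPM of eGFP and 8786 against 3699.5 UMIs per cell, and their part in these differences was not tested.

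The starts of the genes were read for short motifs in the 250 bases before each RefSeq start, on both strands. Entries were at hand for 5 of the 7 genes, 8 starts in all; Tdh and Kcnq3 had none. The GC box, searched as GGGCGG, was found at starts 2 and 3 of Pth1r and at start 1 of Vcan, Palm3 and Igfbp2. Of the window before start 3 of Pth1r, 109 of the 250 bases lie in exons of the gene. Counted by start, the GC box lies in 33.0% of the 32536 starts of all genes. The CCAAT box, searched by those letters, was found at 1 start each of Pth1r and Vcan, against 33.8% of all starts. The TATA box was searched as TATAAA and found only before Fscn1, 31 bases before its start, against 12.3% of all starts. The E-box, searched as CACGTG, was found only before Igfbp2, against 6.04% of all.

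Factors of gut development were searched by short core letters. The ONECUT core was taken as ATTGAT, which lies in 6.60% of all starts, and the CDX core as TTTATG, which lies in 10.8%. The GATA core was AGATAA, in 9.97% of all starts, and the FOXA core was TGTTTAC, in 3.17%. The TEAD core was GGAATG, in 12.6%. None of these letters were in any of the 8 windows, which says only that they are not in these bases. The windows were rich in G and C, at 56.0% to 70.4% against a median of 52.4% over all starts. The genes lie on 7 different chromosomes.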

How the data were processed

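For each library the authors deposited raw UMI counts per gene and barcode. Per the submitters' processing notes these come from Cell Ranger 3.1.0 and mm10; the strand setting, the annotation and the barcode filter are not given in the sources used here. Members, gene lists, motifs and divisions were chosen with earlier results of these data known. No other columns of per-sample values were used.

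Kept cells (500 genes, 20% mitochondrial UMIs) were summed per library, cluster or division. Levels are CPM with exact Poisson intervals, shares carry exact Clopper-Pearson intervals, and both cover counting error only. Folds are ratios of CPM with exact conditional intervals; log2 ratios are of CPM + 1, and past the fold means a log2 ratio of at least 1 in size with at least 10 UMIs. No test was made, because each group is 1 library. Clusters come from Leiden (resolution 1, 2000 variable genes, 30 components, 20 neighbours; scanpy 1.11.5, leidenalg 0.10.2) within each library. A cluster took a class name, written with "-like", from fixed markers, of which at least 3 had to reach 50 CPM with a UMI in 10% of its cells; clusters low in UMIs or led by genes of another class stayed unnamed. The thresholds had been revised after clusters were seen. Scrublet scores marked putative doublets (0.8% per 1000 barcodes), which were kept in the values given. The steps were tested on simulated counts. Gene positions are from GENCODE vM21 (GRCm38), start sequences from RefSeq (GRCm38.p6).

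Besides the 7 members, the naming rule took the nearest 3 genes by likeness, the neighbours in the ranking that chose the members, and genes of the role lists; which of these are printed was decided after their values were seen, as were the leading genes of clusters and the genes that overlap a member. Alternatives were every barcode, 1000 genes and 10% mitochondrial UMIs, doublets removed, averaging CPM over cells, TMM factors (edgeR 4.0.16), pseudocounts of 0.1 and 10 CPM, no UMI minimum, non-epithelial clusters left out, other thinning depths and detection limits, and, chosen after seeing the data, gut epithelial clusters alone.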

Additional observations from a re-analysis of the deposited data

How the results depend on the processing

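The 7 genes were past the fold, lower than at E12.5, in each of the 3 later libraries under each alternative run, and highest at E12.5 in each. Of 99 recomputed counts, 95 stayed within 1.5 times the reported value. The count for irradiated over adult, 1 as reported, was 2 when CPM was averaged over cells (Tdh and Igfbp2), 3 with a pseudocount of 0.1 CPM (Fscn1, Tdh and Igfbp2) and 0 with a pseudocount of 10 CPM. The count for the Onecut2 division, 0 as reported, was 1 (Tdh) without thinning; the log2 ratio of Tdh there ran from 0.73 to 1.09 over the alternatives. No direction that was past the fold reversed. Of 840 single values, 157 moved beyond their counting interval. The share of all genes lower past the fold at E17.5, 13.5% as reported, was 20.5% with a pseudocount of 0.1 CPM and 5.03% with one of 10 CPM. Kcnq3, Palm3, Fscn1 and Pth1r in the adult libraries rest on 0 to 20 UMIs, so their order there was not resolved at this depth. No paired analysis was possible because each group is 1 library and the labels tie no 2 libraries to one animal.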
